A study of Mus musculus with 2 samples.

Results

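The G2 and mitosis genes are 55 mouse genes whose transcripts peak as a cell passes from the end of DNA synthesis through division. They were taken as a fixed list of symbols, and all 55 were found among the 32285 genes of the count matrices. The study profiled 2 groups of donor CD4 T cells with 1 single-cell RNA library each. One library came from MARCH1-/- hosts challenged with house dust mite extract, and the other from WT hosts (C57BL/6) challenged in the same way. As labelled, the hosts differ in MARCH1, a ubiquitin ligase that removes MHC class II and CD86 from the surface of antigen-presenting cells; the donors were wild type in both groups. Donors had been sensitized to the extract on days 0 and 7 to 11, and their lung CD4 T cells were taken on day 14, labelled with Cell Trace Violet and transferred. Donor cells low in the dye were sorted from host lungs 4 days after challenge. The dye is diluted at each division, so the sort selected divided cells in both groups. The labels give neither host ages nor how many hosts were pooled.

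Entry into mitosis is driven by Cdk1 bound to cyclin B, which is opened up by Cdc25 phosphatases and aided by the Plk1 and Aurora kinases. Kinetochore proteins then join chromosomes to the spindle, the spindle checkpoint holds back the anaphase-promoting complex until all are joined, and the complex destroys cyclin B and securin to start anaphase. Antigen-stimulated CD4 T cells divide in bursts, so at any moment some cells of a divided population carry these transcripts and most do not.

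Many promoters of such genes share 2 short elements. One is the cell cycle genes homology region (TTTGAA or TTTAAA), to which the Lin54 subunit of the MuvB complexes binds, and the other is the CCAAT box bound by NF-Y. RefSeq promoters from 250 bases before to 50 bases after the start (GRCm38.p6) were matched for 43 of the 55 genes, which gave 45 promoters. TTTGAA was present on either strand in 77.8% of these 45 promoters, against 17.9% of 32851 promoters of all genes. TTTAAA was present in 20%, against 13.2%, and at least 1 of these forms in 84.4%, against 27.6%. CCAAT was present in 77.8% of the 45, against 37.4% of all, and 2 or more copies in 53.3%, against 11.7%. Promoters of the S phase genes that serve as a comparison list had a homology form in 25.6% of 43 and CCAAT in 60.5%. The homology forms cannot overlap each other, while CCAAT can share end letters with them and with its own reverse complement. The 57 homology matches had a median first position of -17 from the start, and 40 of them began within 50 bases of it; the 84 CCAAT matches had a median of -67.5. The genes with neither homology form in the window were Bub1, Cks2, Mad2l1, Nuf2, Nusap1, Pttg1 and Tacc3. A match is a description of letters and not of a bound site.

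The 150 bases before the start are shown for 4 genes with both elements and 2 whose ratios between hosts were near 0, 5′ to 3′ on the strand of the gene, with the homology forms and CCAAT, or their reverse complements, in capitals. Plk1, a kinase of mitotic entry, and Kif11, the motor that pushes spindle poles apart, had 2 of the 3 highest ratios between hosts. Top2a, which untangles sister DNA, and Mki67, which coats mitotic chromosomes, had the most UMIs after Stmn1. Cks2, a small Cdk-binding subunit, and Nusap1, a spindle microtubule protein, are the pair with ratios near 0. Neither had a homology form, but Ckap2 and Spc25, with ratios of 0.00 and 0.02, had TTTGAA. The matched genes without a form ranged from -0.14 (Cks2) to 1.23 (Nuf2). A link between the elements and the ratios was not tested. The stretches lie at chr7:122159285-122159434 (plus strand) for Plk1, chr19:37376232-37376381 (plus) for Kif11, chr11:99024190-99024339 (minus) for Top2a, chr7:135716380-135716529 (minus) for Mki67, chr13:51645082-51645231 (plus) for Cks2 and chr2:119618148-119618297 (plus) for Nusap1.
Plk1: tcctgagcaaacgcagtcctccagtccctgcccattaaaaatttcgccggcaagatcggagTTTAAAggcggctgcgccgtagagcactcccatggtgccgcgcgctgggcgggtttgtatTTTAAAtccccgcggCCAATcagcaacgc
Kif11: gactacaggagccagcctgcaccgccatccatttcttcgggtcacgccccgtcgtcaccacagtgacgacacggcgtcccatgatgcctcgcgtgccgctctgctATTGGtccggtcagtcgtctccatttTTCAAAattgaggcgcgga
Top2a: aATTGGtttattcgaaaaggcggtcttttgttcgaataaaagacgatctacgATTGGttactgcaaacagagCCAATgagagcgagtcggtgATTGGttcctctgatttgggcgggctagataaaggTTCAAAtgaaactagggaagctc
Mki67: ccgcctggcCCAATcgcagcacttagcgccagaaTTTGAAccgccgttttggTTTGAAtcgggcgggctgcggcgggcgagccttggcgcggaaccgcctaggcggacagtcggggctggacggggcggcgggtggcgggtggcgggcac
Cks2: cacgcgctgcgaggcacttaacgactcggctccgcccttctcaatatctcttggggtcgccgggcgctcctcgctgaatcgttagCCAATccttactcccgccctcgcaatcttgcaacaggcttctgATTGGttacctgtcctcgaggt
Nusap1: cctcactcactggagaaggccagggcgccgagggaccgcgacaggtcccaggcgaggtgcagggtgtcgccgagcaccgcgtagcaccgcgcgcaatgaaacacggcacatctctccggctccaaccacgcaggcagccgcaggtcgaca

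The matrices hold 1934068 UMIs for the MARCH1-/- host and 3753437 for the WT host, where a UMI (unique molecular identifier) stands for 1 captured transcript. A barcode counted as a cell from 500 UMIs and 250 genes upward, provided that mitochondrial transcripts took no more than 10%, which left 156 cells of the MARCH1-/- host (81.5% of its UMIs) and 352 of the WT host (68.5%). Median depth was 8017 and 6086.5 UMIs per cell, and no cell barcode was shared. CD4 T cell markers were present as the labels say. Of 12 such markers, all were detected in both libraries. March1 had 0 UMIs in both libraries, which checks nothing, since the donor cells are wild type in both. Because each host genotype has a single library, no test is given: every interval covers counting error only, and host and library cannot be told apart. Levels are counts per 1000000 UMIs of the cells summed (CPM), and ratios are log2 of MARCH1-/- host over WT host with a 95% interval. In a sum over cells, fewer cells of a state and less RNA per cell cannot be told apart, so the per-cell values come first.

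Cells rich in these transcripts made up a larger part of the MARCH1-/- host library. The 55 genes took a median of 0.121% of a cell's UMIs in MARCH1-/- host cells, with an upper quartile of 0.652% and a highest cell of 2.97%. In WT host cells the median was 0.0892%, the upper quartile 0.252% and the highest cell 2.48%. The plot of the share per cell shows most cells of both libraries near 0 and a tail of high cells in each. A cell in which the 55 genes took at least 1% of UMIs is called mitosis-type below, which is a range of a score and not a cell type. Such cells were 27 of 156 (17.3%, exact binomial 95% interval 11.7 to 24.2%) in the MARCH1-/- host and 31 of 352 (8.81%, 6.06 to 12.3%) in the WT host.

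**Figure D1:**
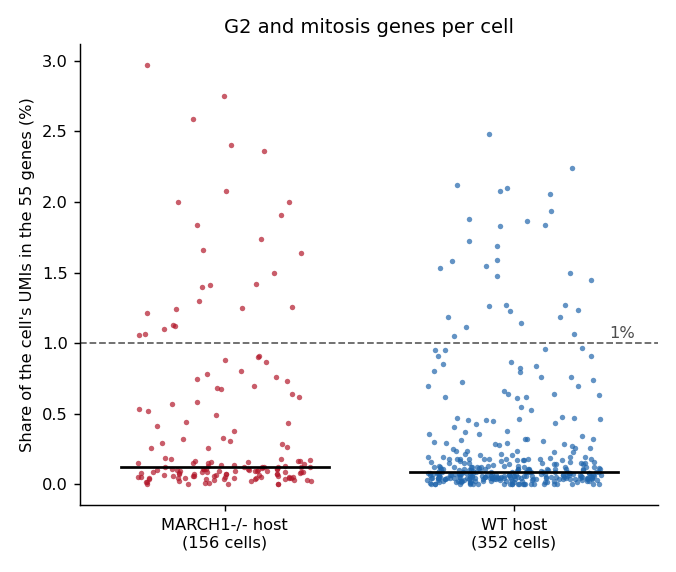
Share of each cell's UMIs in the 55 G2 and mitosis genes (vertical axis, percent) for 156 cells of the MARCH1-/- host and 352 cells of the WT host. Each point is a cell, black lines are medians (0.121% and 0.0892%), and the dashed line marks the 1% limit, above which lie 27 and 31 cells.

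The share is continuous across the limit. Between 0.8% and 1.2% there were 10 cells of the MARCH1-/- host and 17 of the WT host. The highest cells below the limit were at 0.911% and 0.965%, and the lowest above it at 1.06% and 1.05%. The mitosis-type cells were deep: their median was 14471 UMIs in the MARCH1-/- host and 11058 in the WT host, against 7454 and 5679 in the other cells of the same libraries. At an equal depth of 1000 UMIs per cell, the share expected to reach 1% was 17.7% in the MARCH1-/- host and 10.1% in the WT host, where 0 and 11 cells fell short of that depth. Barcodes under 100 UMIs, which mostly hold free RNA and fragments, had 0.570% of their UMIs in the 55 genes in the MARCH1-/- host library and 0.460% in the WT host library. These shares lie above those of a median cell and below 1%; the part of free RNA in the low per-cell values was not tested.

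Mitosis-type cells were chosen by these genes and are deep, so how many of the genes they hold is a description. A median of 46 of the 55 genes (range 20 to 53) had a UMI in a mitosis-type cell of the MARCH1-/- host, and 44 (10 to 52) in the WT host, against 4 and 3 in the other cells. Across cells, each gene was correlated with the summed share of the other 54 by Spearman's rho as a description. The median rho was 0.62 over 156 MARCH1-/- host cells and 0.49 over 352 WT host cells, against 0.108 and 0.0917 for all genes detected in at least 10% of cells. Cells share their library, and depth itself correlated with the summed share (0.571 and 0.457). Birc5 (survivin, of the chromosomal passenger complex) followed the others most closely, with 0.79 and 0.67.

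Pttg1 was the exception. It encodes securin, the inhibitor of separase that is destroyed at anaphase, and its rho was 0.07 and 0.05. Pttg1 stood at 72.1 CPM in mitosis-type cells and 82.5 CPM in the other cells of the MARCH1-/- host, and at 69.2 and 59.1 CPM in the WT host. Only 28.0% and 17.3% of its UMIs came from mitosis-type cells, against medians over the 55 genes of 75.4% and 59.8%. Aurka, the spindle pole kinase, was the most concentrated in the MARCH1-/- host with 94.3% of its UMIs there, and Hmmr, a spindle assembly protein, in the WT host with 76.5%.

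Over all cells, the set was higher in the MARCH1-/- host. The 55 genes summed to 6915 CPM in MARCH1-/- host cells and 4336 CPM in WT host cells, a log2 ratio of 0.67 (0.64 to 0.71). Of the 55 genes, 31 (56.4%) were at least 1.5-fold higher in the MARCH1-/- host, while 27.8% of 9929 genes with at least 10 UMIs were. None was at least 1.5-fold lower, against 11.7% of all genes. The interval lay above 0 for 39 genes, against 2666 of the 9929. The median of the set was 0.66, against 0.25 over all genes. Set against that median gene, the set's median was 0.42 and 20 genes were at least 1.5-fold higher.

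Among the cyclins and their partners, Cdk1, the kinase that starts mitosis, had the highest ratio of the set. It had 121 CPM in the MARCH1-/- host and 43.2 CPM in the WT host (191 and 111 UMIs), a log2 ratio of 1.49 (1.14 to 1.84). Its mitotic cyclin Ccnb1 had 83.8 and 34.6 CPM, a ratio of 1.28 (0.88 to 1.68). Ccna2, the cyclin of S phase and G2, had 87.6 and 37.3 CPM, a ratio of 1.23 (0.84 to 1.62). Ccnb2, a further B-type cyclin, followed with 0.88. The 2 Cdk-binding subunits behaved differently. Cks1b stood at 0.51, while Cks2 had 182 CPM in the MARCH1-/- host and 201 CPM in the WT host, a ratio of -0.14 (-0.35 to 0.07). Cdc25c, a phosphatase that activates Cdk1, was measured on 8 and 17 UMIs, the fewest of the set, and its ratio of -0.38 had an interval from -1.80 to 0.91.

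The mitotic kinases summed to a ratio of 0.72 (0.51 to 0.92). Plk1, which acts from mitotic entry to cytokinesis, led them with 51.4 and 19.8 CPM, a ratio of 1.37 (0.85 to 1.91). Aurkb, the kinase of the chromosomal passenger complex, stood at 0.90, and the checkpoint kinases Bub1b and Bub1 at 0.83 and 0.68. Aurka, Ttk (a checkpoint kinase) and Pbk had ratios of 0.41, 0.17 and 0.13 with intervals that included 0. Pbk, a mitotic protein kinase, had 28.6 CPM in the MARCH1-/- host and 26.1 CPM in the WT host.

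All 5 genes of the checkpoint and anaphase-promoting complex had intervals above 0, as did 2666 of the 9929 genes measured. The sum of the 5 had a ratio of 0.91 (0.77 to 1.05). Ube2c, the ubiquitin-conjugating enzyme of that complex, had 306 and 143 CPM, a ratio of 1.10 (0.90 to 1.30). Cdca3 stood at 0.99, Cdc20, which activates the complex, at 0.97, the checkpoint protein Mad2l1 at 0.62 and Pttg1 at 0.39. At the centromere, Cenpa, the histone that marks it, had 246 and 121 CPM, a ratio of 1.02 (0.80 to 1.24). The 4 subunits of the Ndc80 complex, which grips microtubules, had unequal ratios: Nuf2 1.23, Spc24 1.03, Ndc80 0.90 and Spc25 0.02 (-0.44 to 0.48). Cenpf and Cenpe, large kinetochore proteins, stood at 0.57 and 0.38. In the chromosomal passenger complex, Birc5 had 268 and 147 CPM, a ratio of 0.87 (0.67 to 1.08), and Cdca8 (borealin) a ratio of 0.20 (-0.04 to 0.44).

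Kinesin motors and spindle assembly proteins were both higher as sums, with ratios of 0.91 (0.74 to 1.08) and 0.60 (0.51 to 0.68). All 7 kinesins had positive ratios, as did 6530 of the 9929 genes measured. At least 1.5-fold higher in the MARCH1-/- host were 5 kinesins, with 27.8% of all genes as background. Kif11 led them with 119 and 43.6 CPM and a ratio of 1.45 (1.10 to 1.80). Against the same backgrounds, 7 of the 8 spindle assembly genes had positive ratios and 1 was at least 1.5-fold higher. It was Stmn1, the microtubule-destabilizing stathmin, with 778 CPM in the MARCH1-/- host and 405 CPM in the WT host, a ratio of 0.94 (0.82 to 1.06). Hmmr and Tpx2, a spindle microtubule nucleation factor, stood at 0.48 (0.16 to 0.79) and 0.47 (0.18 to 0.75). Nusap1 had 161 and 162 CPM, a ratio of -0.01 (-0.24 to 0.22), and Ckap2, which stabilizes spindle microtubules, 32.4 and 32.3 CPM, a ratio of 0.00 (-0.53 to 0.52).

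Among the cytokinesis genes, Ect2 and Racgap1, which switch on contraction of the furrow, stood at 0.87 and 0.83. Prc1, which bundles the central spindle, had 180 and 135 CPM, a ratio of 0.42 (0.19 to 0.65), and the ring scaffold Anln a ratio of 0.21 with an interval that included 0. In the last group, Lmnb1, a subunit of the nuclear lamina, had 362 and 178 CPM, a ratio of 1.02 with an interval above 0. Mki67 had 508 and 321 CPM, a ratio of 0.66 (0.52 to 0.80), and Top2a 543 and 360 CPM, a ratio of 0.59 (0.46 to 0.73). The condensin subunits Smc2 and Smc4 had 241 and 147 CPM and 287 and 210 CPM, with ratios of 0.71 (0.50 to 0.92) and 0.45 (0.27 to 0.63). The 3′ ends, where this assay counts, share some 60-base words of their last 400 bases with other annotated genes or pseudogenes in 14 of the 55 genes, Plk1, Kif11 and Spc24 among them. In 3 of these the share was over 10%: Stmn1, Ccnb1 and Cks2 shared 33.5%, 30.1% and 20.5%, so their counts are the least certain.

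**Figure D2:**
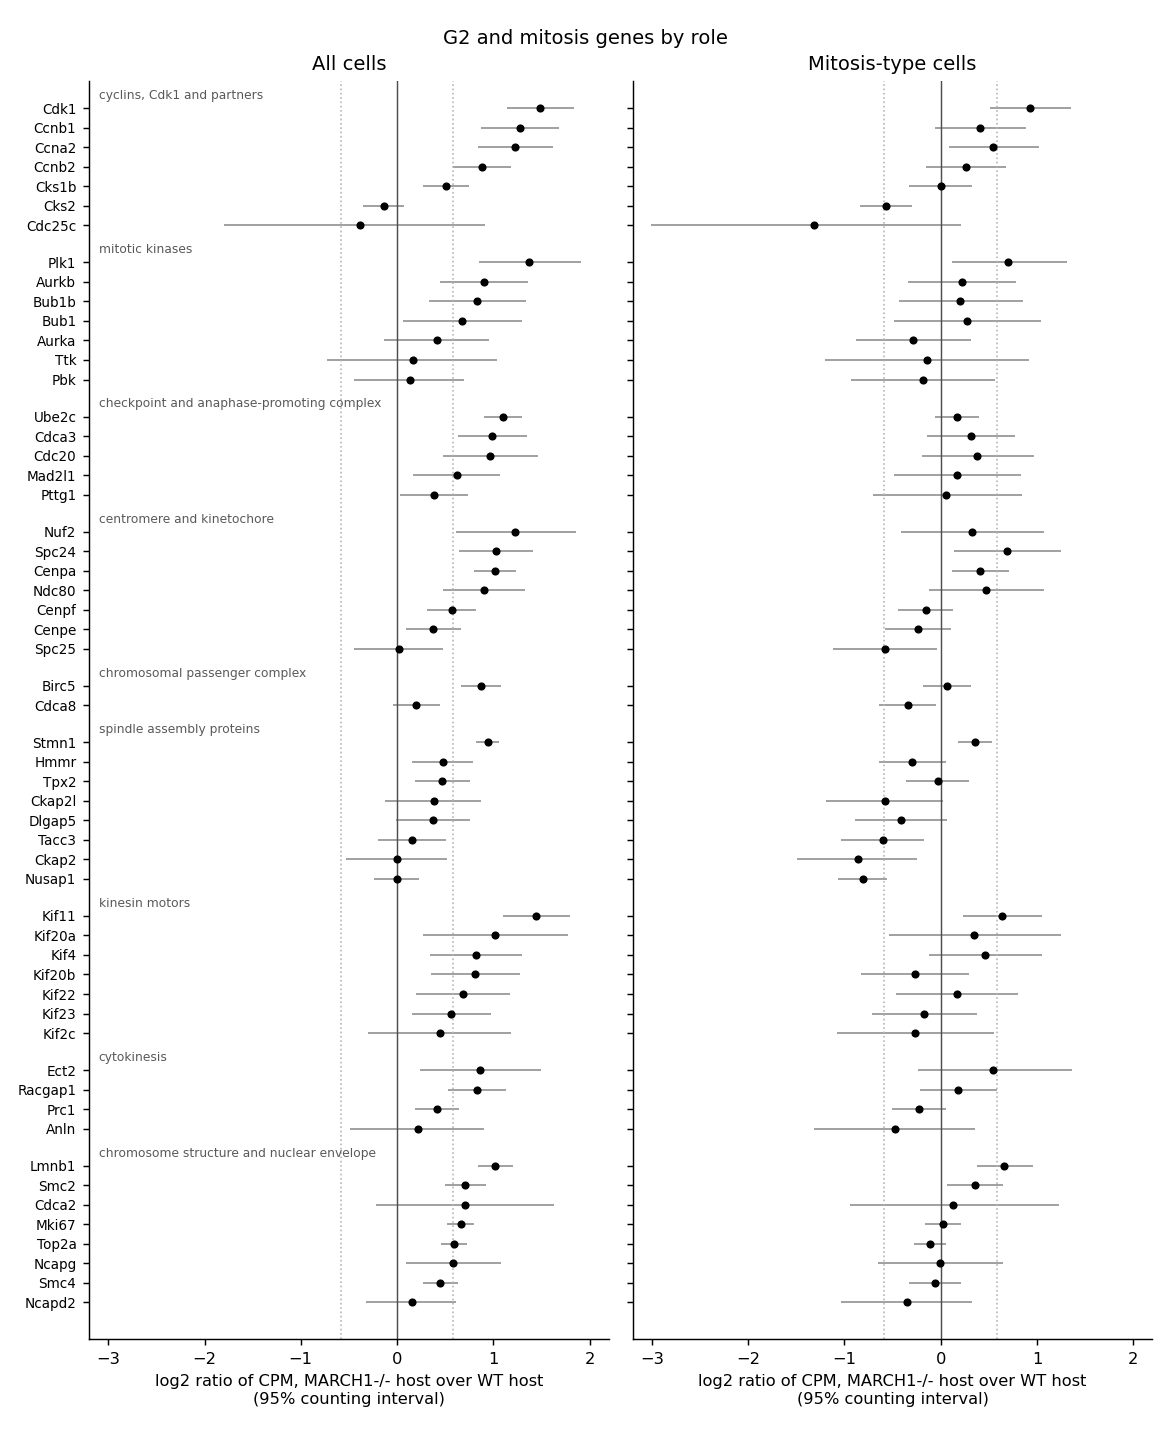
Log2 ratio of CPM, MARCH1-/- host over WT host, for each of the 55 genes by role, over all cells (left) and over mitosis-type cells (right). Points are ratios, bars are 95% counting intervals, dotted lines mark 1.5-fold; the median is 0.66 on the left and 0.06 on the right, where Cdk1 is highest at 0.93.

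Within the mitosis-type cells the set's share of UMIs was level between hosts. The same genes chose these cells, so the values are a description. The 55 genes took 1.58% of UMIs in mitosis-type cells of the MARCH1-/- host and 1.55% in those of the WT host. The median ratio was 0.06, which lay below the median over all genes measured in these cells. At least 1.5-fold higher were 5 genes, with 33.4% of 6852 measured genes as background, and at least 1.5-fold lower were 4, with 13.4% as background. The higher genes were Cdk1 (336 and 177 CPM, ratio 0.93), Plk1 (0.70), Spc24 (0.68), Lmnb1 (0.66) and Kif11 (0.64). The lower genes were Cdc25c (6 and 12 UMIs), Ckap2 (-0.86), Nusap1 (449 and 787 CPM, ratio -0.81, -1.07 to -0.55) and Tacc3 (-0.60). Cks2 had 439 and 649 CPM, a ratio of -0.56 (-0.83 to -0.29), and Spc25 had 113 and 169 CPM, a ratio of -0.58 (-1.12 to -0.04). Of the spindle assembly genes, 7 of 8 were below 0 here, Stmn1 being the exception at 0.36 (0.18 to 0.54), and their sum had a ratio of -0.16 (-0.27 to -0.05).

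Outside the mitosis-type cells, where low values remain by construction, the set had a median ratio of 0.24 over 54 genes with at least 10 UMIs. At least 1.5-fold higher were 13 genes (27.8% of 9590 measured genes as background) and at least 1.5-fold lower 11 genes (11.9% as background). Stmn1 and Lmnb1 stood at 0.82 and 0.84, whereas Plk1 was at -0.22, Prc1 at -0.15, Cks2 at -0.83 and Nusap1 at -0.60. Mitosis-type cells held 70.5% of the set's UMIs in the MARCH1-/- host and 54.4% in the WT host, and 30.8% and 15.2% of all UMIs of cells.

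Genes of the same cycle stage that were not on the list had a similar median over all cells, but a smaller summed ratio. The sum stood at 0.31 (0.27 to 0.34), against 0.67 for the 55 genes. Of 68 other G2 and mitosis genes, 35 were at least 1.5-fold higher in the MARCH1-/- host and 1 lower, against 27.8% and 11.7% of all genes, with a median of 0.65. Among the 5 with the most UMIs, the beta-tubulin Tubb5 had 803 and 357 CPM (1.17), the nuclear regulator Anp32e 453 and 355 CPM (0.35), Arl6ip1 979 and 923 CPM (0.08), the chromatin protein Hmgb2 2448 and 2558 CPM (-0.06) and the calmodulin gene Calm2 355 and 435 CPM (-0.29). Within mitosis-type cells the list's median was 0.10, and 21 of 67 genes were at least 1.5-fold higher and 8 lower, shares near the backgrounds of 33.4% and 13.4% of all genes. Of 26 regulators of the programme (E2F, MuvB, NF-Y and pocket proteins among them), 11 were at least 1.5-fold higher over all cells and 1 lower, against 27.8% and 11.7% of all genes. Their median of 0.35 lay close to the 0.25 of all genes. Rbbp4, a histone-binding MuvB subunit, had 246 and 148 CPM (0.73), and the NF-Y subunit Nfyb 103 and 84.0 CPM (0.29). Foxm1, the transcription factor of G2 genes, named after its values were seen, had 16.5 and 10.5 CPM, a ratio of 0.65 (-0.18 to 1.48).

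DNA synthesis genes were higher in the MARCH1-/- host, among mitosis-type cells too. Of 47 S phase genes over all cells, 26 were at least 1.5-fold higher in the MARCH1-/- host and none lower, against 27.8% and 11.7% of all genes, with a median of 0.64. Within mitosis-type cells, 31 of 46 were at least 1.5-fold higher and 1 lower, against 33.4% and 13.4% of all genes measured there. Their median was 0.80, against 0.27 over those genes. Their sum had 6820 CPM in mitosis-type cells of the MARCH1-/- host and 4110 CPM in those of the WT host, a ratio of 0.73 (0.64 to 0.82). The sliding clamp Pcna had 334 and 195 CPM there (0.78, 0.38 to 1.19), the DNA ligase Lig1 425 and 238 CPM (0.83) and the dUTPase Dut 546 and 372 CPM (0.55). Nasp, a histone chaperone, and the methyltransferase Ezh2 stood at 0.25 and 0.26 with intervals that included 0. The replicative helicase genes, singled out after their values were seen, had larger ratios: Mcm7 336 and 66.7 CPM (2.33), Mcm6 243 and 71.8 CPM (1.76) and Mcm3 214 and 89.7 CPM (1.26).

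Per cell, the S phase genes took a median of 0.698% of UMIs in mitosis-type cells of the MARCH1-/- host and 0.389% in those of the WT host. Shares of at least 0.5% were found in 17 of 27 (63.0%, 42.4 to 80.6%) and 7 of 31 cells (22.6%, 9.59 to 41.1%), intervals that cover counting error within 1 library each. The plot of the 2 shares against each other shows an arc, in which S phase shares peak in cells at 0.5 to 1% of the G2 and mitosis genes and are lower beyond. In that range the S phase list had 9443 CPM in the MARCH1-/- host and 7255 CPM in the WT host. In cells at 1 to 2% it had 7324 and 4203 CPM, and above 2% it had 4850 and 3582 CPM, on 7 and 6 cells. The limit of 0.5% was chosen after the data were seen.

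**Figure D3:**
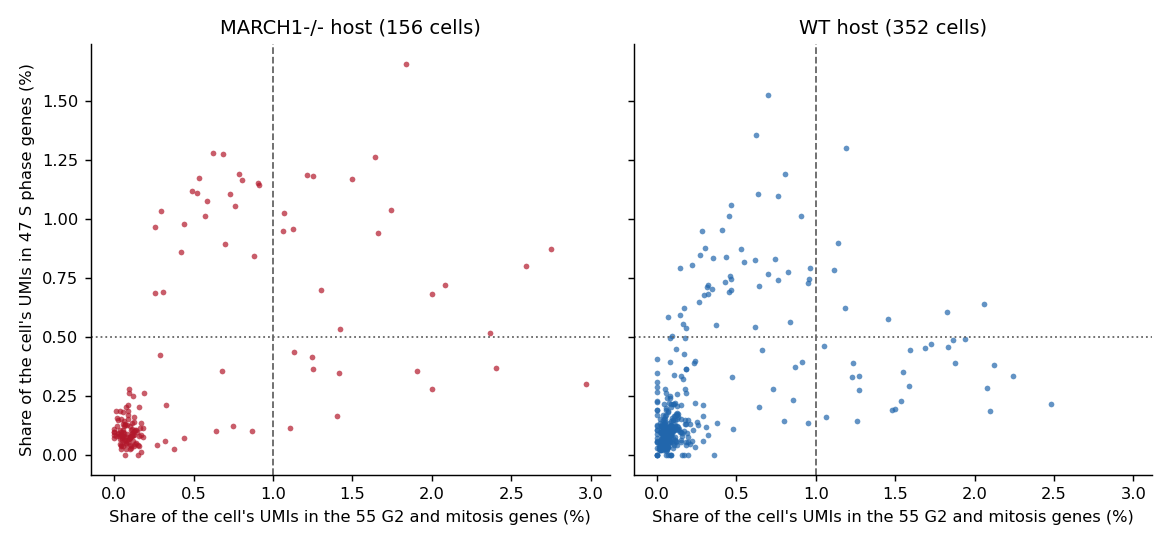
Share of each cell's UMIs in the 55 G2 and mitosis genes (horizontal, percent) against the share in 47 S phase genes (vertical, percent), MARCH1-/- host left and WT host right; each point is a cell. Right of the dashed 1% line, 17 of 27 MARCH1-/- host cells and 7 of 31 WT host cells lie above the dotted 0.5% line.

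The genes off the list that followed the summed share most closely were, by the lower rho of the 2 libraries, Pclaf (a Pcna-binding protein, 0.80 and 0.69), Hmgb2 (0.79 and 0.62), Ptma (0.67 and 0.60), the histone genes Hist1h1b (0.65 and 0.60) and Hist1h3c (0.66 and 0.58), Hmgn2 (0.69 and 0.58), Rrm2 (0.71 and 0.57), Knl1 (0.71 and 0.56), Hist1h2ap (0.69 and 0.56) and Rrm1 (0.68 and 0.56). Some of them went against the set between hosts. Hist1h2ap had 760 CPM in the MARCH1-/- host and 2972 CPM in the WT host, a ratio of -1.97 (-2.06 to -1.88). Hist1h3c stood at -0.90 and Hmgn2 at -0.81, whereas Hist1h1b had 1363 and 515 CPM, a ratio of 1.40 with an interval above 0. Histone genes and Hmgn2 belong to families of near-identical copies, so their counts are uncertain.

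The mitosis-type cells carried T cell markers. Cd3d had a UMI in 27 of 27 cells of the MARCH1-/- host and 30 of 31 of the WT host, and Cd4 in 23 and 27. The 12 CD4 T cell markers summed to 5596 and 4354 CPM, against 6599 and 4667 CPM in the other cells. Macrophage and monocyte markers had 0 UMIs in both, and erythroid markers had 1 and 0. Of 8 B cell markers, 2 were detected, summing to 155 and 53.8 CPM, with Cd79b, Ms4a1, Pax5 and Iglc2 among those at 0. CD8 T and NK cell markers (1 of 7 genes detected) had 18.5 and 15.4 CPM, epithelial and stromal markers (1 and 2 of 9) 66.0 and 61.5 CPM, and markers of innate type 2 lymphoid cells, 4 of 8 detected and shared in part with helper T cells, 472 and 626 CPM. Outside the mitosis-type cells, B cell markers had 82.5 and 17.4 CPM and CD8 T and NK cell markers 6.42 and 12.4 CPM. Epithelial and stromal markers had 45.9 and 47.7 CPM there. These lists were thus higher in mitosis-type cells of both hosts. Markers of innate type 2 lymphoid cells were lower in mitosis-type cells, with 890 and 718 CPM outside them. The part of other cell types in the results below was not tested.

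Helper genes, which the choice of cells did not use, differed between the mitosis-type cells of the hosts. The type 2 cytokine genes Il4, Il5 and Il13, whose products drive IgE, eosinophils and mucus in allergic airways, together had 42 UMIs (86.6 CPM) in the 27 MARCH1-/- host cells and 394 UMIs (1010 CPM) in the 31 WT host cells. The ratio was -3.54 (-4.04 to -3.08). In the other cells of the libraries it was -1.0 (-1.13 to -0.88), from 567 and 1137 CPM. Il13 had 51.5 and 690 CPM in mitosis-type cells, a ratio of -3.74 (-4.40 to -3.15), Il4 24.7 and 269 CPM, a ratio of -3.44 (-4.44 to -2.58), and Il5 10.3 and 51.3 CPM, a ratio of -2.32 (-4.08 to -0.86).

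A few cells carried this difference. The highest WT host mitosis-type cells held 183, 72, 53 and 51 cytokine UMIs, the highest MARCH1-/- host ones 12, 6, 5 and 5. At least 5 UMIs were found in 4 of 27 cells (14.8%, 4.19 to 33.7%) of the MARCH1-/- host and 7 of 31 (22.6%, 9.59 to 41.1%) of the WT host. The top 3 WT host cells held 308 of 394 UMIs, and without the top 3 cells of each library the ratio was -2.38. Barcodes under 100 UMIs had 233 and 670 CPM of these cytokines, more than the MARCH1-/- host mitosis-type cells and fewer than the WT host ones.

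By S phase share, cytokine levels of mitosis-type cells were level in the MARCH1-/- host. They differed in the WT host, on 4 UMIs at or above 0.5%. All 7 WT host cells with at least 5 cytokine UMIs had an S phase share under 0.5%, between 0.143% and 0.489%. Of all 31 WT host mitosis-type cells, 24 were under 0.5%. In mitosis-type cells under 0.5%, the cytokines had 88.3 CPM in 10 MARCH1-/- host cells and 1271 CPM in 24 WT host cells, a ratio of -3.85 (-4.60 to -3.19). In those at or above 0.5%, they had 85.2 CPM (23 UMIs, 17 cells) in the MARCH1-/- host and 48.1 CPM (4 UMIs, 7 cells) in the WT host, a ratio of 0.83 (-0.72 to 2.82). This split was made after the data were seen. By share of the 55 genes, cytokines in the MARCH1-/- host were at 639 CPM below 0.1%, 780 CPM at 0.1 to 0.5%, 172 CPM at 0.5 to 1%, 109 CPM at 1 to 2% and 0 UMIs above 2%. The WT host values in the same order were 1276, 855, 1400 and 1182 CPM, with 2 UMIs (34.3 CPM) above 2%.

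**Figure D4:**
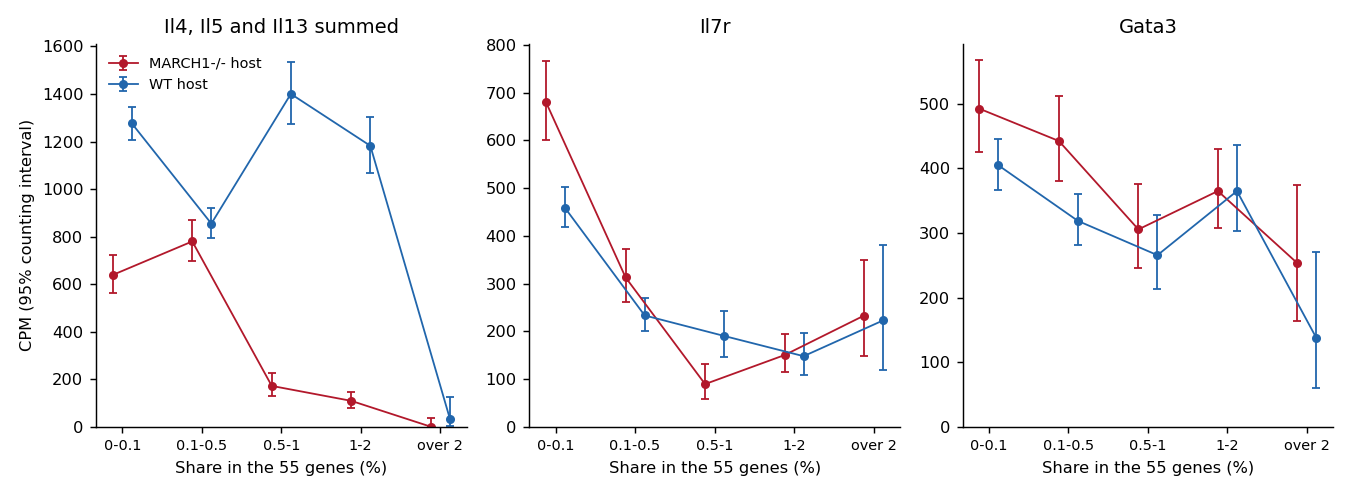
Level (CPM, 95% counting interval) of Il4, Il5 and Il13 summed, of Il7r and of Gata3 in cells binned by the share of their UMIs in the 55 genes, for the MARCH1-/- host (63, 48, 18, 20 and 7 cells from low to high) and the WT host (185, 109, 27, 25 and 6 cells). Cytokines at 1 to 2% are at 109 CPM in the MARCH1-/- host and 1182 CPM in the WT host, while Il7r is at 150 and 148 CPM and Gata3 at 365 in both.

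Other type 2 genes did not all follow the cytokines. Gata3, the transcription factor of type 2 helper cells, had 342 and 331 CPM in mitosis-type cells, a ratio of 0.05 (-0.29 to 0.39). Il1rl1, the IL-33 receptor, had 68.0 and 162 CPM (-1.25, -1.90 to -0.62), and Areg, an epidermal growth factor ligand, 122 and 382 CPM (-1.65, -2.11 to -1.21). Il1rl1 had a UMI in 7 and 12 of these cells, and Areg in 10 and 12. In the other cells the ratios were 0.18 (-0.03 to 0.39) for Il1rl1 and 0.48 (0.32 to 0.63) for Areg. Of the type 2 helper list, 8 of 14 measured genes were at least 1.5-fold lower and 2 higher in mitosis-type cells, against 13.4% and 33.4% of all genes, with a median of -0.99. Compared with the other cells of the same library, mitosis-type cells had 11 of 15 measured type 2 helper genes at least 1.5-fold lower and none higher in the MARCH1-/- host, where 21.6% of genes were lower and 15.4% higher as background. In the WT host 5 of 18 were lower and 2 higher, where 23.7% of genes were lower and 15.5% higher. The 2 comparisons were not tested against each other.

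Checkpoint receptors were not uniformly lower. Pdcd1 (PD-1) had 134 and 149 CPM in mitosis-type cells (-0.15, -0.68 to 0.39), Lag3 88.6 and 76.9 CPM (0.20, -0.50 to 0.93) and Ctla4 600 and 467 CPM (0.36, 0.09 to 0.64). Havcr2 (TIM-3) had 1 and 20 UMIs, a ratio of -4.64 with an interval from -10.01 to -1.99, and Tigit 1 and 9 UMIs. The exhaustion-linked factor Tox had 68.0 and 123 CPM (-0.86, -1.54 to -0.19), and Il10, a suppressive cytokine, 22.7 and 138 CPM (-2.61, -3.70 to -1.66). The Il10 values rest on 11 and 54 UMIs, in 3 of 27 and 10 of 31 cells. Of 19 measured genes on the exhaustion list, 7 were at least 1.5-fold lower and 2 higher, against 13.4% and 33.4% of all genes, with a median of -0.32. The exhaustion list was lower in mitosis-type cells than in the other cells of each library, with medians of -0.80 in the MARCH1-/- host and -0.57 in the WT host. As background, 21.6% of all measured genes were at least 1.5-fold lower and 15.4% higher in the MARCH1-/- host. In the WT host 23.7% were lower and 15.5% higher.

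Foxp3, the lineage factor of regulatory T cells, had 22.7 and 23.1 CPM in mitosis-type cells (11 and 9 UMIs, in 4 and 5 cells), and Il2ra, the high-affinity IL-2 receptor chain, 159 and 256 CPM (-0.69, -1.14 to -0.25). The regulatory T list had 5 of 13 genes at least 1.5-fold lower and 2 higher, and the type 1 helper list 4 of 7 lower and none higher, against 13.4% lower and 33.4% higher of all genes. Ifng, the type 1 cytokine, had 2 and 6 UMIs and Tbx21, its regulator, 5 and 1. Of 8 type 17 helper genes, 6 were at least 1.5-fold higher, 3 of them with an interval above 0, and 2 were lower, against the same 33.4% and 13.4%. Il17a was one of the lower with 76.3 and 156 CPM (-1.04, -1.67 to -0.42).

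Many genes on a list of quiescence and cell cycle arrest were higher in the MARCH1-/- host also among mitosis-type cells. Of 20 such genes, 12 were at least 1.5-fold higher and 1 lower in mitosis-type cells, against 33.4% and 13.4% of all genes, with a median of 0.68 against 0.27. Klf2, a factor that holds T cells quiescent, had 311 and 146 CPM (1.09, 0.64 to 1.56), and Tcf7 (TCF1), of memory and stem-like T cells, 59.8 and 20.5 CPM (1.54, 0.38 to 2.88). The Tcf7 values rest on 29 and 8 UMIs, in 11 and 4 cells. Klf6 had 439 and 264 CPM (0.73), and Btg1, an antiproliferative gene, 604 and 459 CPM (0.40, 0.12 to 0.67). Il7r, the receptor for the survival cytokine IL-7, had 167 and 159 CPM (0.07, -0.42 to 0.57), and Pdcd4 138 and 192 CPM (-0.48, -0.98 to 0.02). Btg1 was among the genes with the lowest rho with the summed share (-0.54 and -0.31), as was Malat1, a nuclear long noncoding RNA (-0.57 and -0.42). Il7r was at 680 and 458 CPM in cells below 0.1% of the 55 genes, and at 150 and 148 CPM at 1 to 2%. Klf2 did not fall in this way, with 231 and 83.5 CPM below 0.1%, and 269 and 133 CPM at 1 to 2%. Its log2 ratio of mitosis-type over other cells was 0.12 (-0.17 to 0.40) in the MARCH1-/- host and 0.64 (0.19 to 1.07) in the WT host.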

How the data were processed

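Per the labels' protocols, libraries were made with a 10x Chromium 3′ kit. The authors' deposited matrices hold raw whole-number UMI counts per gene and barcode for all barcodes, 158635 in the MARCH1-/- host library and 223154 in the WT host library. The submitters' processing notes name Cell Ranger 3.1.0 and the mm10 build, but the matrix header names version 4 of that tool. The sources used here do not give the annotation.

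The limits for a cell were 500 UMIs, 250 genes and 10% mitochondrial UMIs. Suspected doublets stayed in, and their removal with Scrublet (scanpy 1.11.5) was an alternative; it marked 5 of 156 and 5 of 352 cells, 1 and 0 of them mitosis-type. Counts were summed over cells and scaled to 1000000. Intervals are exact Poisson for levels, exact conditional binomial for ratios and Clopper-Pearson for shares (scipy 1.17.1, Python 3.11.15), and a side at 0 UMIs entered at a floor of 3. Lists used genes with at least 10 UMIs over both sides, called at 1.5-fold. The counting functions were tested on simulated data.

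Full values are given for the 12 members with most UMIs, the 5 highest and 5 lowest ratios among members with at least 50 UMIs, listed helper genes, up to 5 genes of each other list and the 10 best correlated genes. The members and lists were chosen with earlier results of these data known. Promoters are RefSeq's, gene positions GENCODE's, both GRCm38. Alternatives covered filters, weighting, totals, depth, limits and left-out cells.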

Additional observations from a re-analysis of the deposited data

Results flagged for a closer look

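Barcodes that did not count as cells also carried the G2 and mitosis genes. Of 25 barcodes over the mitochondrial limit in the MARCH1-/- host library, 2 had at least 1% of their UMIs in the 55 genes (8%, exact binomial 95% interval 0.984 to 26.0%), and of 72 in the WT host library 8 did (11.1%, 4.92 to 20.7%). Barcodes under 100 UMIs had 0.57% and 0.46% of their UMIs in the 55 genes, in the same order of hosts as the cells, whose summed shares were 0.691% and 0.434%. These low barcodes held 16.9% and 28.9% of the UMIs of their libraries.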

How the results depend on the processing

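No paired analysis was possible because each group has 1 library. The median ratio of the 55 genes over all cells stayed between 0.42 and 0.67 under the 11 alternatives run. Genes at least 1.5-fold higher numbered 20 with cells thinned to 1000 UMIs and 20 relative to the median gene. Genes at least 1.5-fold lower numbered 1 at a mitochondrial limit of 5%, 1 with cells weighted equally, 3 thinned, 1 relative to the median gene and 1 without the 3 cells richest in these genes per library. The summed ratio was 0.61 at the 5% limit, 0.58 without ribosomal and mitochondrial totals, 0.57 thinned, 0.43 relative to the median gene and 0.62 without those 3 cells. Mitosis-type cells were 28.8% and 16.5% at a limit of 0.5%, 4.49% and 1.70% at 2%, and 11.5% and 5.97% without 6 broadly expressed members. The type 2 cytokine ratio was -3.00 with cells weighted equally, -2.38 without the top 3 cells and 0.83 in mitosis-type cells with at least 0.5% S phase UMIs, where Ctla4 (-0.07) and Il1rl1 (0.44) also changed sign; Il2ra was at 0.02 at the 2% limit, where the cytokines (0 and 2 UMIs) gave no ratio. Of 332 single-gene values under an alternative, 37 moved beyond their interval. A further 3, as named, changed sign from a main ratio whose interval lay clear of 0. Sign changes of ratios whose interval included 0 were not counted. The causes were not tested. Depth limits genes of few UMIs, such as Cdc25c, Cdca2 and Ttk.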
